A study of Homo sapiens with 6 samples.

Results

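Imprinted genes, which are transcribed mainly or only from the chromosome inherited from a single parent, were examined in MDA-MB-231 cells after treatment with guadecitabine. The set was chosen by gene symbol from a list of 40 genes known to be imprinted, and 34 of them were found among the 17100 transcripts of the table. No cut on the measured values defined the set, but earlier results of these data were known when it was chosen. IGF2, ZIM2, SNRPN, SNURF, DLK1 and DDC were not analysed here. The 34 genes were separated by parental origin into 14 paternally expressed genes, 17 maternally expressed genes and 3 genes whose parental origin differs between transcripts or tissues. Of the 34 genes, 30 passed the filter on low counts and were tested, and PEG3, NDN, KCNQ1 and KCNK9 were not.

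MDA-MB-231 is an established triple-negative breast cancer cell line with mesenchymal-like features. RNA was sequenced from 3 vehicle cultures and from 3 cultures exposed to 1 µM guadecitabine for 96 h and then kept without drug for 24 h. The cultures came from independent experiments. The labels give no exposure time for vehicle. All libraries come from a single cell line, and the counts do not tell the parental alleles apart.

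In imprinting, a methyl mark on CpG sites, set in the egg or the sperm and copied at each cell division, keeps a promoter or another control element silent or closed on the marked chromosome. Most such marks come from the egg, and the genes whose own promoter carries such a mark are therefore mostly expressed from the paternal chromosome. Many maternally expressed genes carry no mark at their promoter and depend on a shared control element, often through a non-coding RNA or an insulator. Guadecitabine is a dinucleotide of decitabine and deoxyguanosine that releases decitabine, which is built into DNA and traps DNA methyltransferases, so that methylation is lost as cells divide. DNA methylation and allelic origin were not measured in these libraries.

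Vehicle libraries held between 17602570 and 22277442 counts in total, and guadecitabine libraries between 8792127 and 21410849. Vehicle replicate 3 stood apart from the other libraries. It listed 20 transcripts at 0, against 2498 and 2517 in vehicle replicates 1 and 2 and 1593 to 2090 after guadecitabine. Over 2778 genes outside the imprinted set with at most 1 count in each of vehicle replicates 1 and 2, it held a median of 7.77 counts per kb of exon, against a median of 0 in each of the other 5 libraries. Values without this library are given for imprinted genes whose call changed without it and for some others. The mesenchymal markers VIM and CD44 were abundant in vehicle cells, at 37578 and 3062 normalized counts per kb, and the oestrogen receptor ESR1, the progesterone receptor PGR, the leukocyte gene PTPRC and the liver gene ALB were at 3 counts or fewer in every library except vehicle replicate 3, which held 67, 43, 36 and 11 counts of them. AXL, at 5061 normalized counts per kb in vehicle, fell with a log2 fold change of -1.27, CD44 and VIM rose by 1.18 and 0.33, and ZEB1, at 94.5 per kb, did not pass the test. The epithelial markers EPCAM and CDH1 were detected in vehicle, at 194 and 8.97 per kb, and fell with -0.68 and -1.63. Without vehicle replicate 3, CDH1 fell with -1.14, and VIM did not pass the test (adjusted p = 0.056 from edgeR). The haemoglobin gene HBA1, whose reads may be shared with its near-identical copy HBA2, had 12, 13 and 17 reads in vehicle and 46, 23 and 41 after guadecitabine, and rose by 1.70. The part of these marker changes in the results was not tested.

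The sequences upstream of 4 imprinted genes are shown because these genes passed the test and rose by at least 2-fold. CpG sites, the sites that DNA methyltransferases act on, are counted in each of these sequences. Each sequence is the 250 bases before the start of the deposited transcript, 5′ to 3′, with CpG in capitals. It was read from GRCh37, which is the same assembly as hg19.
PLAGL1, chr6:144385737-144385986, minus strand: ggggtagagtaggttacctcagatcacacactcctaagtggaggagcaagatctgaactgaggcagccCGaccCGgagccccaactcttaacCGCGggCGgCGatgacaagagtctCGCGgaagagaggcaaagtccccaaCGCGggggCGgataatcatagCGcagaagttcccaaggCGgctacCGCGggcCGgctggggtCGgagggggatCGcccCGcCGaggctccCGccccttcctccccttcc
DIRAS3, chr1:68516461-68516710, minus strand: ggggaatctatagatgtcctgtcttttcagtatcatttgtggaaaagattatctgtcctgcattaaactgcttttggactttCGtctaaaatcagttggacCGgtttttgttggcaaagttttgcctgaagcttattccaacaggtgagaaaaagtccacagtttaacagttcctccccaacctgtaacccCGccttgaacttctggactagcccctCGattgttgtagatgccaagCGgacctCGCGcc
TFPI2, chr7:93520304-93520553, minus strand: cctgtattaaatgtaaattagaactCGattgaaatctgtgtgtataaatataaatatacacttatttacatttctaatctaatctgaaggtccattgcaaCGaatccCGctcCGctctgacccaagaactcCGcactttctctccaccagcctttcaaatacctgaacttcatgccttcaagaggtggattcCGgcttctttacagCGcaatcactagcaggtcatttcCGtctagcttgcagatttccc
CPA4, chr7:129932724-129932973, plus strand: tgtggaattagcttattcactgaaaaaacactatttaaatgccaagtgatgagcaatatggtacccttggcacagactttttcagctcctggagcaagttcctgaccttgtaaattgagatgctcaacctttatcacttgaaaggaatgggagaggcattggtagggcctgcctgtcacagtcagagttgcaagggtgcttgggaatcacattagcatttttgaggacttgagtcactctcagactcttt
PLAGL1 holds 21 CpG in this stretch, TFPI2 8, DIRAS3 7 and CPA4 0. For PLAGL1, 17 of 27 GENCODE transcripts start over 1000 bp from the deposited start, so that the sequence shown is that of only some of its promoters. Whether the sequence shown belongs to the PLAGL1 promoter that carries the parental mark was not examined. For DIRAS3 and TFPI2, 0 of 4 and 0 of 6 transcripts do so.

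Over a window from 250 bases before to 50 bases after the start, the 34 imprinted genes held a median of 23.5 CpG, ranging from 1 in CPA4 to 48 in ATP10A, against a median of 22 over all genes in the table. The 11 genes that rose had a median of 19 CpG and the 7 that fell a median of 22. The letters TGCCGC, the core recognised by the imprint-keeping zinc finger protein ZFP57 when methylated, were searched on both strands, as TGCCGC and GCGGCA. They occurred in 15 of the 34 windows, 44.1%, and in 21.4% of the 17093 windows of all genes in the table. Among the genes that rose, 4 of 11 held these letters, or 36.4%, MEST, INPP5F and PHLDA2 among them. The share was higher in the genes that did not pass the test, 7 of 12 or 58.3%, and 2 of the 4 genes not tested held them. ATP10A and GNAS held them among the 7 that fell. A match to these letters is a description of the window and not a measured binding site.

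Of the 30 imprinted genes tested, 11 rose after guadecitabine, 7 fell and 12 did not pass the test (edgeR quasi-likelihood test, adjusted p under 0.05). Over all 13322 genes tested, 37.7% were called, 19.3% higher and 18.4% lower. The imprinted genes were thus called in 60% and higher in 36.7%, while the share that fell, 23.3%, was nearer to that of all genes. TFPI2, PLAGL1, NNAT, CPA4 and DIRAS3 rose by at least 2-fold and ATP10A and TRAPPC9 fell by at least 2-fold, and the other 11 called genes changed by less. Among all genes, 6.65% rose and 5.61% fell by at least 2-fold. The groups did not overlap in 24 of the 30 imprinted genes, against 51.7% of all genes, and these 24 included all 18 called genes. The median log2 fold change of the imprinted genes was 0.12, against 0.02 over all genes. In bulk RNA, a change in every cell and a change in the share of cells that express a gene cannot be told apart.

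**Figure D1:**
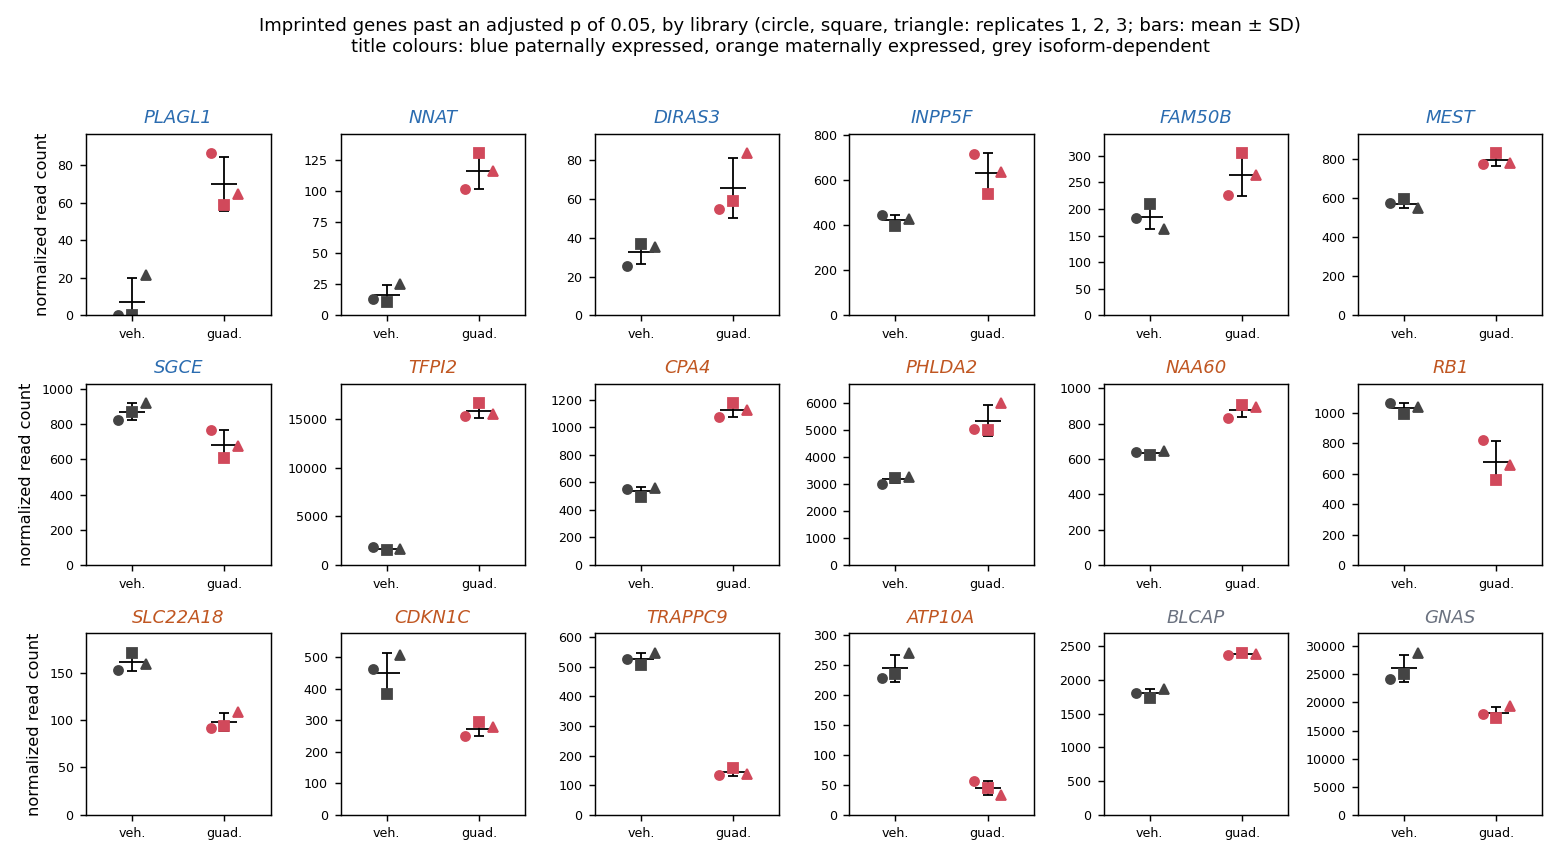
Normalized read counts of the 18 imprinted genes past an adjusted p of 0.05, in 3 vehicle and 3 guadecitabine libraries, each panel on its own linear axis from 0. Points are libraries, bars are the mean ± SD of 3 libraries, and the groups do not overlap in any of the 18 panels.

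Among the genes that passed the test, the paternally expressed ones mostly rose and the maternally expressed ones went both ways. Of the 12 paternally expressed genes tested, 6 rose (PLAGL1, NNAT, DIRAS3, INPP5F, FAM50B and MEST), SGCE fell and 5 did not pass the test, with a median log2 fold change of 0.44. Of the 15 maternally expressed genes, 4 rose (TFPI2, CPA4, PHLDA2 and NAA60), 5 fell (ATP10A, TRAPPC9, CDKN1C, SLC22A18 and RB1) and 6 did not pass, with a median of -0.09. The difference between these lists was described by counts and was not tested. The 6 paternally expressed genes that rose became 3 without vehicle replicate 1, without guadecitabine replicate 2 or without guadecitabine replicate 3, while the maternally expressed genes that rose stayed at 4 in these fits.

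PLAGL1 encodes a zinc finger transcription factor that restrains cell proliferation and is linked to transient neonatal diabetes. It had 0, 0 and 28 reads in vehicle replicates 1, 2 and 3 and 107, 29 and 64 after guadecitabine. The log2 fold change was 3.17 (SE 1.06, adjusted p = 0.0410 from edgeR). All its vehicle reads were in replicate 3, at 10.3 counts per kb of exon, close to the median of 7.77 counts per kb of genes silent in the other vehicle libraries. Against a floor of 3 counts in each of vehicle replicates 1 and 2, PLAGL1 was at least 23.3-fold higher after guadecitabine.

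NNAT encodes neuronatin, a small membrane protein of the endoplasmic reticulum involved in calcium handling. It had 13.3, 10.6 and 25.5 normalized counts in the vehicle libraries and 101, 130 and 116 after guadecitabine, so that the lowest treated library was well above the highest vehicle library. Its log2 fold change was 2.77 (SE 0.37, adjusted p = 0.000477) and rose to 3.24 without vehicle replicate 3. DIRAS3 encodes a RAS-related GTPase that restrains growth and is often silenced in breast and ovarian cancer. Its normalized counts were 25.7, 36.9 and 35.5 in vehicle and 55.0, 59.0 and 83.7 after guadecitabine, with a log2 fold change of 1.01 (SE 0.35, adjusted p = 0.0466), or 1.08 without vehicle replicate 3.

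The other paternally expressed genes changed by less than 2-fold. MEST, which encodes a protein of the hydrolase fold family and is also known as PEG1, had 576, 593 and 548 normalized counts in vehicle and 776, 829 and 778 after guadecitabine, a log2 fold change of 0.47 (SE 0.10, adjusted p = 0.00505). For MEST, 11 of 17 GENCODE transcripts start over 1000 bp from the deposited start, and the counts do not tell its transcripts apart. INPP5F, a phosphoinositide phosphatase, had 443, 396 and 427 normalized counts in vehicle and 715, 537 and 632 after guadecitabine (log2 fold change 0.58, SE 0.13, adjusted p = 0.00664). For INPP5F, 8 of 21 GENCODE transcripts start over 1000 bp from the deposited start, and which of them is imprinted was not examined. FAM50B, an intronless copy of FAM50A, had 184, 210 and 163 against 226, 305 and 264 normalized counts (log2 fold change 0.51, SE 0.16, adjusted p = 0.0361). In these 3 genes each guadecitabine library was above each vehicle library.

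SGCE encodes epsilon-sarcoglycan, a membrane protein mutated in myoclonus dystonia. It was the paternally expressed gene that fell, from 825, 867 and 920 normalized counts in vehicle to 768, 608 and 679 after guadecitabine, a log2 fold change of -0.34 (SE 0.12, adjusted p = 0.0443). PLAGL1, DIRAS3, FAM50B and SGCE were not called in every fit that left out a library, and all 4 lost the call without vehicle replicate 1, without guadecitabine replicate 2 and without guadecitabine replicate 3, while the calls of NNAT, MEST and INPP5F remained in each such fit. Of those that did not pass, L3MBTL1, a reader of methylated histones, came closest, with 66.6, 59.1 and 85.6 normalized counts in vehicle and 39.6, 32.5 and 42.4 after guadecitabine (log2 fold change -0.87, adjusted p = 0.0504). The groups of L3MBTL1 did not overlap either. For this gene, 26 of 33 GENCODE transcripts start over 1000 bp from the deposited start. The log2 fold changes were 0.41 for ZDBF2 (adjusted p = 0.229), 0.41 for NAP1L5 (adjusted p = 0.322) and -0.06 for ZFAT (adjusted p = 0.750). Without vehicle replicate 3, ZDBF2 had 0.58 and NAP1L5 0.53, and neither passed the test. MKRN3, which encodes a RING finger protein that restrains the onset of puberty, had 6, 3 and 42 reads in vehicle and 14, 8 and 8 after guadecitabine, so that its log2 fold change of -0.28 (adjusted p = 0.823) became 1.29 (adjusted p = 0.0846) without vehicle replicate 3.

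The genes listed here as carrying a parental methyl mark at their own promoter were all among the paternally expressed ones. Of 10 such genes tested, 6 rose, 1 fell and 3 did not pass, with a median log2 fold change of 0.49, where 19.3% of all genes rose and 18.4% fell. They are the tested paternally expressed genes without ZDBF2 and ZFAT, and the called genes are the same ones, so this is no separate result. Whether the deposited start of each gene lies at the marked promoter was not examined. Of the 20 other imprinted genes, 5 rose and 6 fell, with a median of -0.07. Leaving out 13 genes listed here as having imprinting limited to few tissues, polymorphic or disputed left 17 tested genes. Of these 17 genes, 9 rose and 3 fell, with a median of 0.47. How broadly the genes kept, TFPI2 among them, are imprinted across tissues was not examined. PLAGL1, NNAT, DIRAS3 and TFPI2 were the genes of this smaller set that changed by at least 2-fold, and all 4 rose. CPA4, which rose by at least 2-fold, and ATP10A and TRAPPC9, which fell by at least 2-fold, were among those left out. Both groupings were drawn up with earlier results of these data known. They describe the values, and differences between them were not tested. The calls of PLAGL1, DIRAS3, FAM50B and SGCE, which depend on single libraries, enter the counts of both groupings.

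TFPI2, a maternally expressed gene for a secreted inhibitor of serine proteases of the extracellular matrix, had the largest fitted rise of the imprinted genes tested when all 6 libraries were used. It had 1832, 1576 and 1684 normalized counts in vehicle and 15349, 16630 and 15459 after guadecitabine. The change was 9.31-fold, a log2 fold change of 3.22 (SE 0.11, adjusted p = 1.21e-07), and the spread within each group was small beside it, at 1697 ± 129 in vehicle and 15813 ± 710 after guadecitabine (SD, n = 3). Per kb of exon, TFPI2 went from 717 to 6678 normalized counts. It was the fifth most abundant of the imprinted genes in vehicle cells and, after guadecitabine, the second after GNAS.

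CPA4, a secreted carboxypeptidase, had 555, 497 and 556 normalized counts in vehicle and 1073, 1175 and 1126 after guadecitabine, a log2 fold change of 1.07 (SE 0.10, adjusted p = 6.90e-05). PHLDA2, a pleckstrin homology domain protein that limits growth of the placenta, had 3012, 3219 and 3264 normalized counts in vehicle and 5049, 4999 and 5994 after guadecitabine (log2 fold change 0.76, SE 0.11, adjusted p = 0.000668). NAA60, an N-terminal acetyltransferase of the Golgi, had 638, 623 and 643 normalized counts in vehicle and 831, 907 and 892 after guadecitabine (log2 fold change 0.46, SE 0.10, adjusted p = 0.00524). In all 3 genes the treated libraries lay above the vehicle libraries by more than the spread within either group.

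The deepest falls of the imprinted genes were also in maternally expressed genes. ATP10A, a phospholipid flippase, had 228, 234 and 270 normalized counts in vehicle and 55.8, 44.7 and 33.3 after guadecitabine. Its level fell to 0.184 of vehicle, a log2 fold change of -2.44 (SE 0.22, adjusted p = 4.32e-05). TRAPPC9, a subunit of a vesicle tethering complex, had 527, 507 and 548 normalized counts in vehicle and 134, 159 and 138 after guadecitabine. It fell to 0.270 of vehicle, a log2 fold change of -1.89 (SE 0.12, adjusted p = 6.32e-06). In both genes the highest treated library was far below the lowest vehicle library.

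CDKN1C, SLC22A18 and RB1, genes that restrain growth, fell by less than 2-fold. CDKN1C encodes the cyclin-dependent kinase inhibitor p57 and had 460, 384 and 508 normalized counts in vehicle and 248, 293 and 277 after guadecitabine (log2 fold change -0.73, SE 0.14, adjusted p = 0.00312). SLC22A18, a transporter-like membrane protein, had 153, 171 and 159 against 91.4, 93.5 and 109 normalized counts (log2 fold change -0.71, SE 0.17, adjusted p = 0.00951). RB1, the retinoblastoma tumour suppressor, had 1061, 995 and 1035 against 822, 555 and 655 normalized counts (log2 fold change -0.60, SE 0.14, adjusted p = 0.0103). The groups did not overlap in any of these genes, and the treated libraries of RB1 were the most spread.

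Of the maternally expressed genes that did not pass the test, OSBPL5, a lipid transfer protein, came closest, with a log2 fold change of -0.47 (adjusted p = 0.0515) and groups that did not overlap. The neuronal scaffold gene PPP1R9A had -0.88 on the log2 scale (adjusted p = 0.117) at 24.2 to 67.1 normalized counts, and -0.55 without vehicle replicate 3. UBE3A, the ubiquitin ligase lost in Angelman syndrome, which is imprinted mainly in neurons, had 0.15 (adjusted p = 0.418). IGF2R, the receptor that clears IGF2, had 0.10 (adjusted p = 0.584), and the histone chaperone NAP1L4 had -0.09 (adjusted p = 0.564). UBE3A had 880, 815 and 798 normalized counts in vehicle and 795 to 1098 after guadecitabine, and its groups overlapped, as did those of IGF2R and NAP1L4.

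Of the genes with isoform-dependent origin, GNAS, the gene of the stimulatory G protein alpha subunit, was the most abundant imprinted gene and fell. It had 24145, 25130 and 28827 normalized counts in vehicle and 17979, 17207 and 19312 after guadecitabine, a log2 fold change of -0.52 (SE 0.10, adjusted p = 0.00387). Of 77 GENCODE transcripts of GNAS, 71 start over 1000 bp from the deposited start, and the exons shared by its maternal, paternal and biallelic transcripts were not counted apart. Its annotated exons also overlap those of the antisense gene GNAS-AS1 by 1127 bp. BLCAP, a small membrane protein first found in bladder cancer, rose from 1803, 1737 and 1865 normalized counts to 2375, 2403 and 2390 (log2 fold change 0.41, SE 0.09, adjusted p = 0.00826). GRB10, an adaptor that inhibits insulin signalling, had -0.18 on the log2 scale (adjusted p = 0.173).

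**Figure D2:**
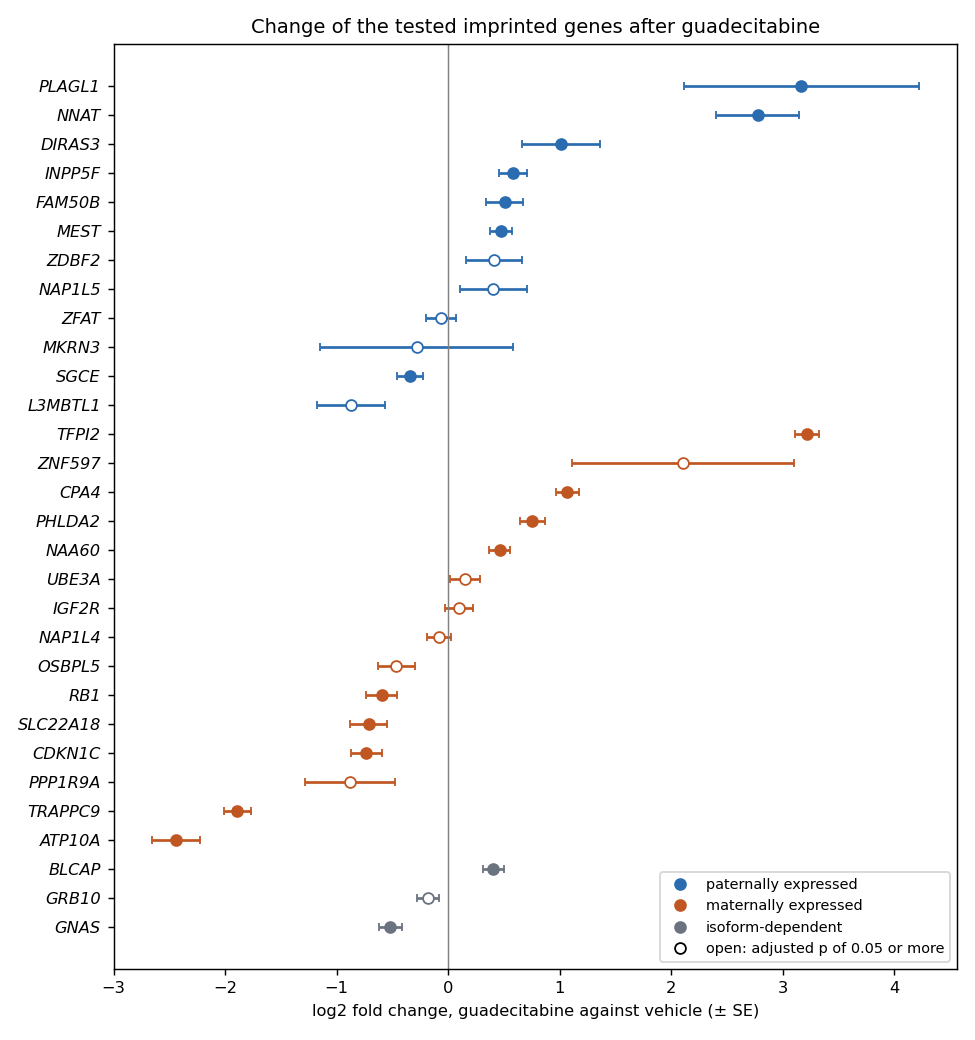
Log2 fold change, guadecitabine against vehicle, with the standard error as bars, of the 30 imprinted genes tested, grouped by parental origin; filled points have an adjusted p under 0.05 and open points do not. Paternally expressed genes lie mostly to the right of 0, with SGCE as the filled point to its left, while maternally expressed genes extend from -2.44 in ATP10A to 3.22 in TFPI2.

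Imprinted genes lie in clusters, so the changes were also arranged by position on hg19. Neighbours moved in opposite directions in several clusters. On chromosome 11, CDKN1C and SLC22A18 fell, while PHLDA2, which lies 3.03 kb from SLC22A18, rose. The imprinting of these genes depends on a control element within KCNQ1. NAP1L4 and OSBPL5, further along the same group, did not pass the test. On chromosome 15, ATP10A fell while UBE3A, 239.7 kb away, did not pass the test, with a log2 fold change of 0.15.

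On chromosome 7, TFPI2 rose, while CALCR, the calcitonin receptor gene 310.7 kb from it, fell with a log2 fold change of -1.65 (adjusted p = 0.0196) and SGCE, 694.2 kb to the other side, fell with -0.34. PEG10 starts 0.115 kb from SGCE and is transcribed in the opposite direction from a shared imprinted promoter region, and its log2 fold change was -0.27 (adjusted p = 0.0616). In a second group on the same chromosome, CPA4 and MEST rose and COPG2, which overlaps the end of MEST on the opposite strand, fell with -0.91 (adjusted p = 0.00431). The strand setting of the counting is not given in the sources used here, so reads from the overlap cannot be assigned between MEST and COPG2.

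NNAT on chromosome 20 lies within the span of BLCAP on the opposite strand, and both genes rose, NNAT by a log2 fold change of 2.77 and BLCAP by 0.41. Their exons overlap by 85 bp. ZNF597 and NAA60 on chromosome 16 start 0.13 kb apart on opposite strands, and ZNF597 had the larger log2 fold change, 2.11 against 0.46, although only NAA60 passed the test. On chromosome 8, TRAPPC9 fell. KCNK9, 27.3 kb away, had 0, 0 and 31 reads in vehicle replicates 1, 2 and 3 and was not tested. KCNK9 had 0 reads in each guadecitabine library, which allows up to 3 counts in each.

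**Figure D3:**
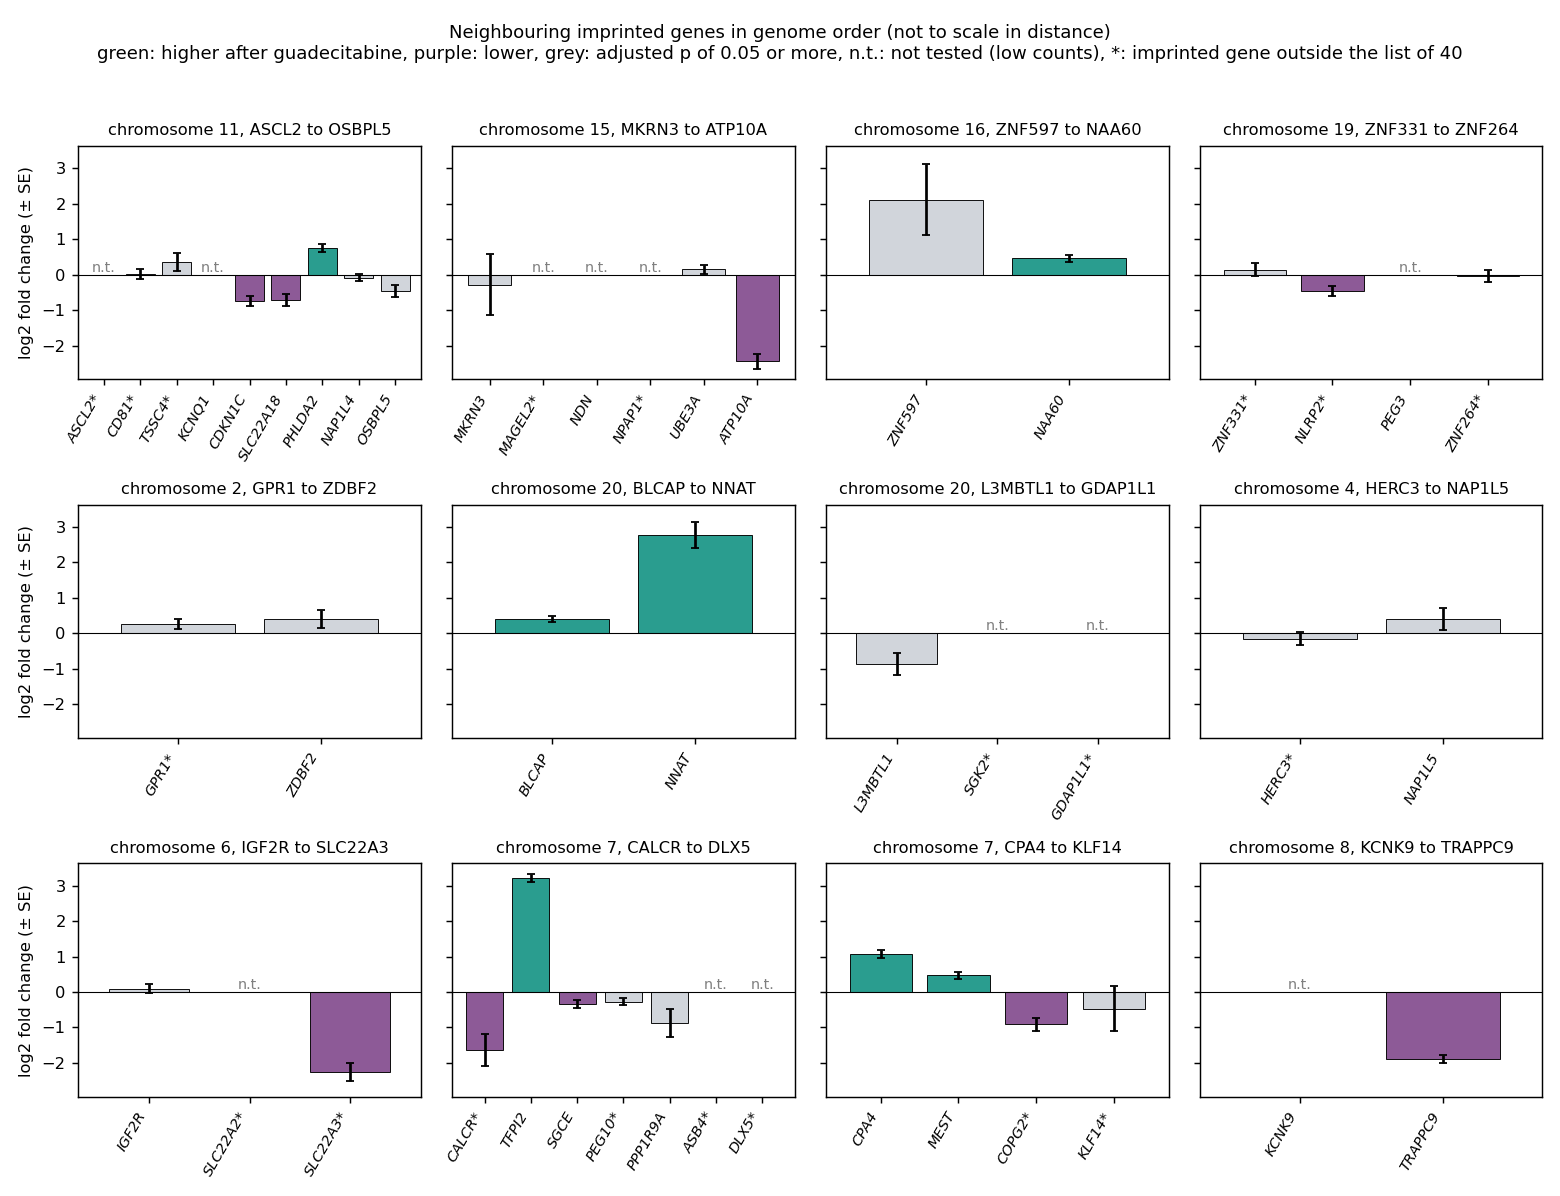
Log2 fold change with its standard error for 46 listed imprinted genes in 12 groups of neighbours, in genome order from left to right within each panel; distances are not to scale, n.t. marks genes that were not tested and an asterisk genes outside the 40. Bars of both directions stand side by side in the CDKN1C, TFPI2 and MEST groups.

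Several imprinted genes were at or near 0 in vehicle cells. ZNF597, a zinc finger gene, had 2, 0 and 25 reads in vehicle and 49, 17 and 23 after guadecitabine, with a log2 fold change of 2.11 (SE 1.00, adjusted p = 0.127). Without vehicle replicate 3 its log2 fold change was 4.85 (adjusted p = 0.000313), and the ratio of its treated level to that of vehicle replicates 1 and 2 was 32.7, with a 95% interval of 8.79 to 274 that covers counting error only. The vehicle replicate 3 value of ZNF597 was 4.54 counts per kb. PEG3, a zinc finger gene of the placenta and brain, had 0, 0 and 11 reads in vehicle and 6, 7 and 5 after guadecitabine, which is at least 2.67-fold higher against the floor of 3 counts in each of vehicle replicates 1 and 2. It was not tested, as its counts were too low for the filter.

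NDN, the gene of the growth suppressor necdin, had 0, 0 and 18 reads in vehicle and 1, 1 and 3 after guadecitabine. The potassium channel genes KCNQ1 and KCNK9 had 5, 2 and 17 and 0, 0 and 31 reads in vehicle, and 0, 0 and 3 and 0, 0 and 0 after guadecitabine. These 3 genes were below the filter on low counts and no change was tested. Vehicle replicate 3 was the highest library for each of these 3 genes, at 5.44 to 13.3 counts per kb.

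**Figure D4:**
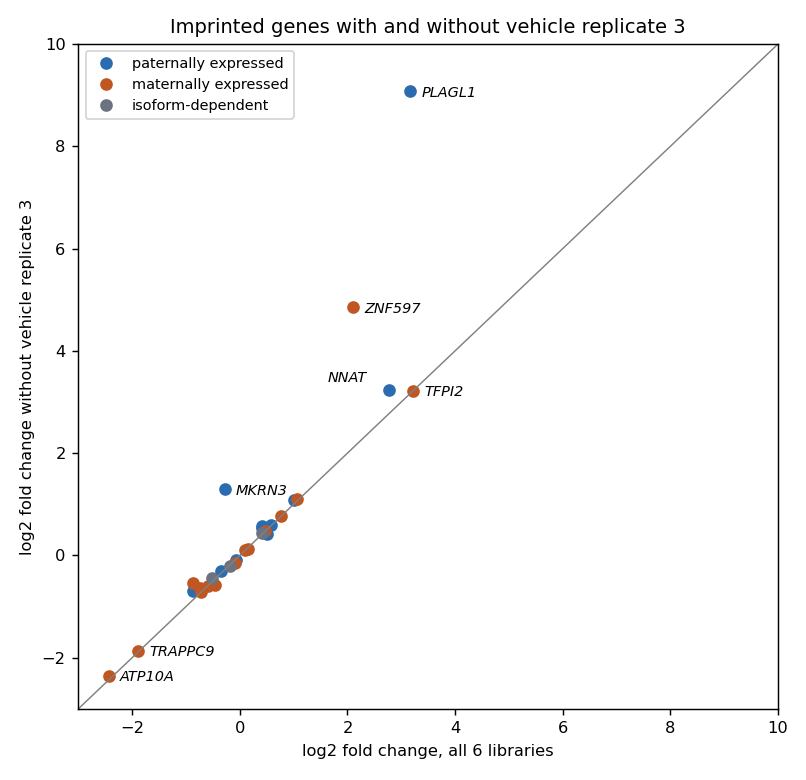
Log2 fold change of each tested imprinted gene from all 6 libraries (horizontal axis) and from the 5 libraries without vehicle replicate 3 (vertical axis), with the line of equal values. PLAGL1, ZNF597, MKRN3 and NNAT lie above the line, and the value of PLAGL1 without vehicle replicate 3 depends on the prior count because both remaining vehicle libraries are at 0.

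Without vehicle replicate 3, 11 imprinted genes rose and 8 fell, against a background of 22.6% higher and 19.4% lower over 13296 genes. The paternally expressed genes then counted 5 higher and 1 lower, and the maternally expressed genes 5 higher and 6 lower. SGCE and FAM50B lost the call, and L3MBTL1, OSBPL5 and ZNF597 gained it. In that fit the log2 fold changes were -0.30 for SGCE, 0.42 for FAM50B, -0.69 for L3MBTL1 and -0.57 for OSBPL5. PLAGL1 had 9.08, a value that depends on the prior count because both remaining vehicle libraries are at 0.

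Levels per kb of exon differed widely among the imprinted genes. In vehicle cells GNAS was highest, at 10162 normalized counts per kb, followed by PHLDA2 at 3440, NAP1L4 at 1024, BLCAP at 869 and TFPI2 at 717. The paternally expressed genes lay lower, from 0.434 in PEG3 to 512 in SGCE. After guadecitabine the order at the top was GNAS at 7090, TFPI2 at 6678, PHLDA2 at 5812 and BLCAP at 1153. The genes that rose most among the paternally expressed ones, PLAGL1, NNAT and DIRAS3, stayed far below these levels.

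A further list of genes reported as imprinted, outside the 40, was examined for comparison. Genes of this list whose imprinting is limited to few tissues, polymorphic or disputed were not set apart. Of 61 listed genes, 38 were in the table and 26 were tested, of which 4 rose and 7 fell, with a median log2 fold change of -0.10. The share called was 42.3%, near the 37.7% of all genes. The RNA-binding protein gene ZC3H12C rose by 1.99 on the log2 scale, the transcription factor gene WT1 by 1.49 and ADTRP, a gene linked to regulation of coagulation, by 1.35. SLC22A3, an organic cation transporter gene near IGF2R, fell with a log2 fold change of -2.26, the p53 family member TP73 with -1.95 and CALCR with -1.65. Adjusted p-values of these 6 genes were at most 0.0413, that of ADTRP. ADTRP was called in 5 of 12 alternatives and CALCR in 7 of the 11 that tested it, both losing the call without vehicle replicate 1 and without any single guadecitabine library, while the other 4 were called in all 12.

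Factors that keep or read imprints were examined as the machinery of the same genes. Of 20 listed, 19 were in the table and 16 were tested, of which 2 rose and 7 fell. These are 12.5% and 43.8% of the tested factors, where 19.3% of all genes rose and 18.4% fell. ZFP57, the zinc finger protein that binds methylated imprinted regions, had 0, 0 and 13 reads in vehicle and 66, 11 and 35 after guadecitabine, with a log2 fold change of 3.33 (SE 1.06, adjusted p = 0.0355). ZFP57 was at least 12.3-fold higher against the floor of 3 counts in each of vehicle replicates 1 and 2. HELLS, a chromatin remodeller needed for DNA methylation, rose by 0.56 on the log2 scale (adjusted p = 0.0144).

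Genes for partners of ZFP57 fell, with log2 fold changes of -0.43 for TRIM28, its corepressor, -0.40 for the histone methyltransferase SETDB1 and -0.49 for the heterochromatin protein CBX5. UHRF1, which recruits the maintenance methyltransferase, fell with -0.76, the de novo methyltransferase DNMT3A with -0.85, the insulator protein CTCF with -0.66 and the histone methyltransferase EHMT2 with -0.85. The largest adjusted p of these 7 genes was 0.0218, that of TRIM28. UHRF1, DNMT3A, CTCF and EHMT2 were called in all 12 alternatives, and SETDB1 and HELLS in 11, losing the call without vehicle replicates 2 and 1 respectively. TRIM28 was called in 7 of 12, with an adjusted p of up to 0.106, and CBX5 in 8 of 12, with up to 0.0917. ZFP57 was called in 5 of the 11 alternatives that tested it, with an adjusted p of up to 0.132, and lost the call without any single library other than vehicle replicate 3. DNMT1, the maintenance methyltransferase itself, changed by -0.21 on the log2 scale without passing the test (adjusted p = 0.102) and DNMT3B by 0.39 (adjusted p = 0.0863). ZNF445, SMCHD1, ARID4A, ARID4B and ZNF202 did not pass the test, and DNMT3L, CTCFL and NLRP7 were not tested.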

How the data were processed

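The authors aligned reads to hg19 with STAR 2.3.1z and deposited raw read counts of exons for each RefSeq transcript, with the exon length counted. They also deposited 6 columns of regularized log2 values from DESeq2 and the columns of their own DESeq2 comparison (mean, log2 fold change, standard error, statistic, p-value and adjusted p-value), and neither was used here. The smallest total of a transcript in the table was 11. The strand setting, read length and handling of reads that match several places are not given in the sources used here.

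Samples were grouped by their titles into 3 vehicle and 3 guadecitabine libraries, with 17602570 to 22277442 and 8792127 to 21410849 counts. No 2 libraries held identical counts. The main test was that of edgeR 4.0.16, run in R 4.3.3 (TMM, filterByExpr with a minimum count of 10, quasi-likelihood test, Benjamini-Hochberg adjustment over 13322 genes, threshold 0.05). Normalized counts are scaled to a mean library total of 17911210, and levels per kb divide them by the exon length. The F statistic of that test gave the standard errors. On simulated counts of 13154 genes with 200 changed, edgeR recovered 75 of 100 genes changed 2-fold and 92 of 100 changed 4-fold, with 18 false calls, and DESeq2 1.42.0 recovered 77 and 94 with 31 false calls. A far smaller share of genes was changed in the simulation than the 37.7% called in the data, so these rates may not hold for the data. The floor was 3 counts in a library, and floors and intervals cover counting error only.

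Every imprinted gene in the table was named. Values in every library were given for genes past the threshold and for genes at or under 3 counts in all libraries of 1 group but not of the other, and the rest by range and log2 fold change. Values in every library were also given for L3MBTL1, MKRN3, ZNF597 and the genes not tested, chosen after their values were seen. Further imprinted genes were named where they passed the threshold with at least 2-fold change, and all tested imprint maintenance factors were named. The imprinted genes, the lists and the tests were chosen with earlier results of these data known. Groups of neighbours, listed genes on a chromosome with gaps of at most 2 Mb, were defined after the data were seen. Alternatives were DESeq2, its size factors, library totals only, no filter, at least 10 counts in every library, a replicate block and each library left out. Upstream sequences and CpG counts were read from GRCh37 and transcript starts from GENCODE 44 with Python 3.11.15. The upstream sequence of a further gene is not reported here.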

Additional observations from a re-analysis of the deposited data

How the results depend on the processing

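The counts of imprinted genes that rose and fell, 11 and 7, ranged from 8 to 11 and from 6 to 8 when each library was left out in turn, and all genes ranged from 1706 to 3002 higher and from 1629 to 2575 lower, with the lowest counts without guadecitabine replicate 3. Paternally expressed genes then counted 3 to 5 higher and 0 to 1 lower, and further imprinted genes 2 to 6 higher, with 6 without vehicle replicate 3. Besides the 6 leave-one-out fits, 6 alternatives were run. The paternally expressed genes that fell were 2 with DESeq2, with its size factors and with at least 10 counts in every library, L3MBTL1 being the gene added, and 0 with library totals only. Under all 12 alternatives, 14 of the 18 called imprinted genes kept the call. The exceptions were PLAGL1, DIRAS3, SGCE and FAM50B, and leaving out vehicle replicate 1, guadecitabine replicate 2 or guadecitabine replicate 3 each left 14 of the 18.

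Same-numbered libraries did not deviate together, with correlations of -0.038, 0.038 and -0.032, so the numbers were not taken to pair the cultures. With a replicate block, 10 imprinted genes rose and 7 fell, DIRAS3 and SGCE lost the call, OSBPL5 gained it, and the paternally expressed genes that fell were 0. The log2 fold change of MKRN3 with the block was 0.28.

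Signs turned in genes that had not passed the test. Over the leave-one-out fits, MKRN3 ranged from -0.72 to 1.29, ZFAT from -0.174 to 0.055, IGF2R from -0.011 to 0.166, UBE3A from -0.003 to 0.24, ZNF445 from -0.178 to 0.032, ARID4A from -0.05 to 0.329 and ARID4B from -0.121 to 0.164. The cause was not tested. Without a filter, the median log2 fold change of all genes was -0.11. PEG3, NDN, KCNQ1 and KCNK9 were below the filter and were not tested, and guadecitabine replicate 2 was the shallowest library.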
